A study of Homo sapiens with 24 samples.

Results

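The Src family and focal adhesion kinase genes described here are 9 of the 20098 protein-coding genes on chromosomes 1 to 22 and X. They are the Src family kinases SRC, YES1, FYN, LYN, LCK, and FGR, the Src-inhibiting kinase CSK and its membrane adaptor PAG1, and PTK2, which encodes focal adhesion kinase. The genes were chosen by name. A binding site belongs to a gene if its summit lies in the gene body or within 50 kb of it, and 44 of the 30322 sites of S100A8 and S100A9 in the genome do. Chromatin immunoprecipitation with sequencing (ChIP-seq) was performed on MCF-10A cells, a nontransformed human mammary epithelial line, that express ER-Src. ER-Src is a fusion of the viral Src kinase v-Src with the ligand-binding domain of the estrogen receptor, and every group carries it. The cells also stably express S100A8-Flag or S100A9-Flag from a retroviral vector, and an antibody to the Flag epitope was used for all 11 libraries. In the EtOH groups, cells received ethanol for 24 hours, and the TAM groups received 1 μM 4-hydroxytamoxifen for 24 hours, which switches the fused kinase on. The titles number the libraries as replicates, and the paper's methods speak of biological replicates. There are 2 of S100A8 EtOH and 3 each of S100A8 TAM, S100A9 EtOH, and S100A9 TAM.

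Src family kinases are membrane-anchored tyrosine kinases that act downstream of growth factor receptors and integrins. CSK phosphorylates their inhibitory tail tyrosine, PAG1 recruits CSK to the membrane, and focal adhesion kinase binds Src at integrin contacts so that both become active. S100A8 and S100A9 are calcium-binding proteins of the S100 family, best known as secreted inflammatory factors of myeloid cells.

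The authors called peaks in each library against its own chromatin input. Peaks with a q value of at most 1e-07 were used. Of these, the S100A8 EtOH libraries have 4327 and 4609, the S100A8 TAM libraries have 29381, 24117, and 21518, the S100A9 EtOH libraries have 3595, 1853, and 4596, and the S100A9 TAM libraries have 25494, 23994, and 40735. TAM libraries thus have more peaks throughout the genome, and the lists give no read numbers, so that depth and binding cannot be told apart in any of the numbers of peaks below. A site is confident in a condition if overlapping peaks are present in at least 2 of its replicates, and the confident sites of the 4 conditions were merged into the 30322 union sites. Fold enrichment is the height of a peak over input, and its percentile is the rank among the peaks of the same library. A summit is in a promoter if a TSS of the gene lies no more than 1500 bp after it or 250 bp before it in the direction of the gene, and distances from a TSS are negative upstream. All coordinates are hg19 (GRCh37).

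Confident promoter sites are found at SRC, YES1, FYN, FGR, and PTK2, which is 5 of 9 genes, beside 45.7% of all protein-coding genes. The sequences of the promoter sites of SRC, YES1, FYN, and FGR follow, written in the direction of the gene and within 75 bp of the summit. Exonic bases were removed, which shortens the windows of FYN and FGR. Capitals mark matches to 8 short motifs searched on both strands, namely the GC box (GGGCGG), the CCAAT box (CCAAT), and the motifs of ETS (CGGAAG), AP-1 (TGANTCA), STAT (TTCNNNGAA), C/EBP (TTGCNNAA), TEAD (GGAATG), and CTCF. The last 2 sequences are the sites in SRC and CSK that have the highest mean percentile among those inside each gene, outside promoters, that were called in at least 4 libraries.
SRC promoter, chr20:35974349-35974499, plus strand: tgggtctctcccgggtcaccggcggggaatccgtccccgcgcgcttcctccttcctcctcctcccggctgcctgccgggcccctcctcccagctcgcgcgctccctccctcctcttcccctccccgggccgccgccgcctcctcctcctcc
YES1 promoter, chr18:812832-812982, minus strand: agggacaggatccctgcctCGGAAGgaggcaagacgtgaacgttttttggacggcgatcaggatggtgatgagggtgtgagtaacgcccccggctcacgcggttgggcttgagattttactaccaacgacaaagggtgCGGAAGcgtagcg
FYN promoter, chr6:112194656-112194714, minus strand: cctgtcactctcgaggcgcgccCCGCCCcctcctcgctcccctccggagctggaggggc
FGR alternative promoter, chr1:27952752-27952809, minus strand: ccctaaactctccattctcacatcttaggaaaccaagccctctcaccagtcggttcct
SRC intron 4, chr20:36013191-36013341, plus strand: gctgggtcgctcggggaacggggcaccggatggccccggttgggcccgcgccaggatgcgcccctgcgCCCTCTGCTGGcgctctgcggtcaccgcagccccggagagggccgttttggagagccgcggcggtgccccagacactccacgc
CSK intron 5, chr15:75092594-75092744, plus strand: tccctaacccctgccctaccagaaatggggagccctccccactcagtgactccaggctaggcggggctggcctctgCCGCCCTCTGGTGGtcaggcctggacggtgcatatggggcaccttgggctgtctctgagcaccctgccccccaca

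The YES1 window holds 2 ETS matches, and the FYN window holds 1 GC box on the opposite strand. The intronic windows of SRC and CSK each hold 1 CTCF match, which in CSK overlaps a GC box. The sequences of the SRC and FGR promoters hold none of the 8 motifs, although the FGR window with its exonic bases has a C/EBP match. Over the 151 bp around the summit, the CTCF motif is found at 3 of 44 sites (6.82%), beside 7.25% of all union sites. The GC box is found at 9 of 44 (20.5%, beside 24.3%), and the ETS motif at 2 of 44 (4.55%, beside 11%). AP-1 matches are present at 9 of 44 sites (20.5%, beside 28.2%), and 8 of these are among the 32 sites outside any promoter (25%, beside 38.0% of such sites in the genome). The remaining motifs are found at 8 (CCAAT, 18.2% beside 14.8%), 1 (STAT, 2.27% beside 4.31%), 3 (C/EBP, 6.82% beside 9.74%), and 5 sites (TEAD, 11.4% beside 10.4%). The median GC content of the windows is 57.6% for the 44 sites and for all union sites. By class it is 70.9% at the 12 promoter sites, beside 67.5% of promoter sites in the genome, and 57.3% at the 32 others, beside 53.6%.

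The 44 sites are spread unevenly over the genes. PTK2 has 10, CSK 7, LYN and FGR 6 each, SRC and LCK 5 each, YES1 and FYN 2 each, and PAG1 1. Since the genes differ in length, sites were also counted per 100 kb of gene body and flanks. CSK has 5.78 per 100 kb, FGR 4.87, LCK 3.71, SRC 3.10, LYN 2.56, PTK2 2.25, YES1 1.05, FYN 0.639, and PAG1 0.409, and the median of all genes is 1.83. CSK lies at percentile 89.3 of all genes in this density and PAG1 at percentile 17.4. The loci also cover neighboring genes. By position, 6 sites are in member promoters, 13 in introns, and 1 in an exon of a member, 6 are in promoters of the neighbors ENOSF1, IQCC, HDAC1, IFI6, ULK3, and AGO2, 7 are in introns and 2 in exons of neighbors, and 9 are intergenic. None of the 5 sites at LCK lies in the LCK gene itself.

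**Figure D1:**
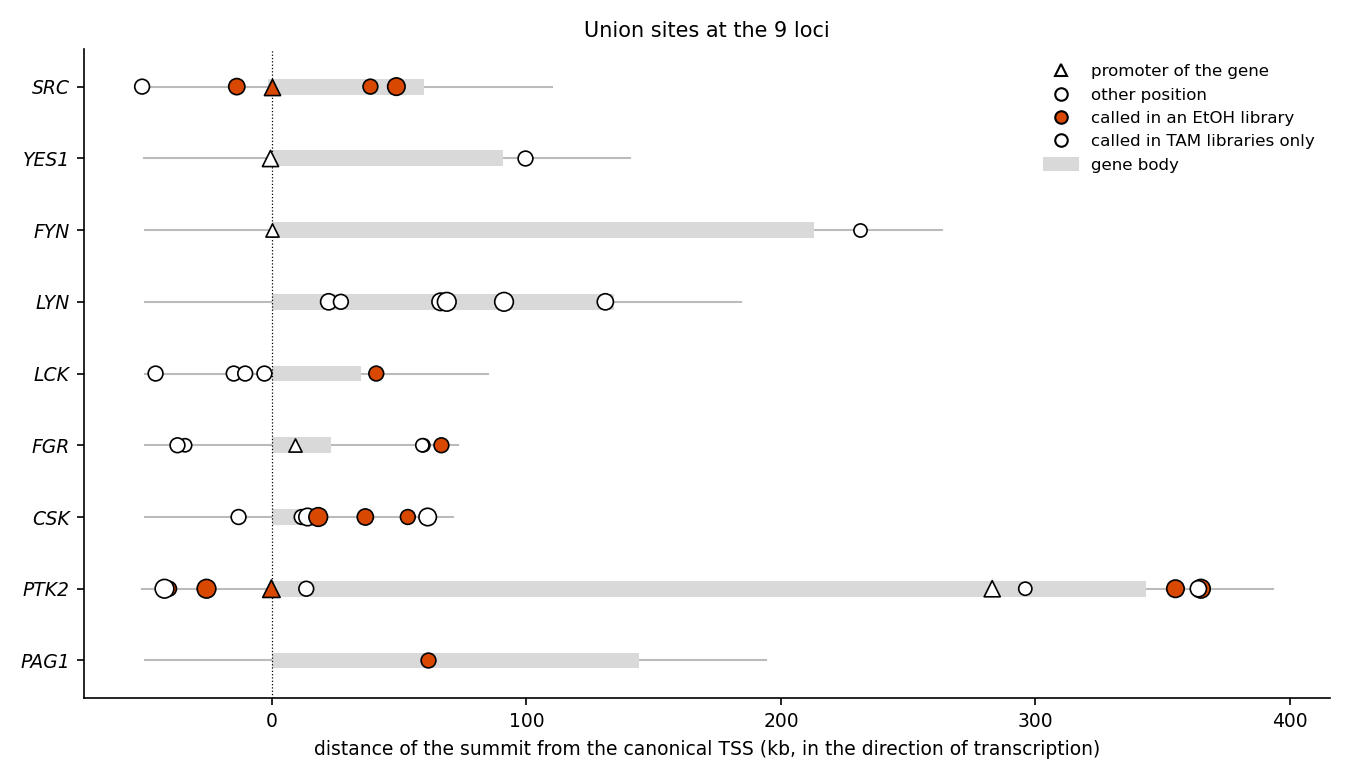
Union sites at the 9 loci by the distance of the summit from the canonical TSS in kb, with grey bars for gene bodies and thin lines for the 50 kb flanks. Triangles are sites in a promoter of the gene, orange symbols were called in at least 1 EtOH library, larger symbols in more TAM libraries, and all 6 LYN sites are white and inside the gene.

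Peaks at the 9 loci number 11 and 9 in the S100A8 EtOH libraries, 48, 36, and 28 in S100A8 TAM, 5, 2, and 5 in S100A9 EtOH, and 37, 41, and 56 in S100A9 TAM. The question of this comparison is whether S100A8 and S100A9 occupy the loci more often in TAM. SRC, YES1, LYN, FGR, CSK, PTK2, and PAG1 were called with more peaks in TAM (adjusted p of at most 0.05 in the exact permutation test). This is 7 of 9 genes, beside 67.6% of the 18126 genes tested. LCK and FYN have positive differences that did not pass. No gene tested was called with fewer peaks. The median TAM minus EtOH difference is 3.33 peaks for the 9 genes and 2.42 for all genes tested. In 5 of 9 genes (SRC, LYN, FGR, CSK, and PTK2) every TAM library lies above every EtOH library, beside 40.2% of genes. Both counts are near the background, so nothing in them is particular to these genes. All 9 genes passed the filter of a peak in at least 2 libraries. Genes were tested with an exact permutation test over the libraries, two-sided, in which 0.01 is the smallest p of the 200 arrangements, and p values were adjusted by the Benjamini-Hochberg method over all genes tested.

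Among the Src family kinases with broad expression, SRC, the cellular counterpart of v-Src, has 2 and 2 peaks in S100A8 EtOH, 4, 5, and 3 in S100A8 TAM, 0, 2, and 0 in S100A9 EtOH, and 5, 6, and 5 in S100A9 TAM. The groups do not overlap, and the mean difference is 3.33 peaks (exact permutation test, adjusted p = 0.0219). YES1 has no peak in any EtOH library. It has 5, 1, and 0 peaks in S100A8 TAM and 2, 2, and 5 in S100A9 TAM, with a difference of 2.50 (exact permutation test, adjusted p = 0.0444). S100A8 TAM replicate 3 thus shares the EtOH value. FYN, which also acts in T cells and neurons, has peaks in only 2 libraries, S100A9 TAM replicates 2 and 3, with 2 each, and a difference of 0.667 that did not pass the test (exact permutation test, adjusted p = 0.420).

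LYN, a kinase of B cells and myeloid cells that is also present in epithelia, has 0 and 0 peaks in S100A8 EtOH, 8, 5, and 5 in S100A8 TAM, 1, 0, and 0 in S100A9 EtOH, and 6, 5, and 9 in S100A9 TAM. The lowest TAM library has 5 peaks and the highest EtOH library 1. The difference is 6.17 peaks (exact permutation test, adjusted p = 0.0219). LCK, the Src family kinase of T cells, has 2 and 0 peaks in S100A8 EtOH, 6, 3, and 1 in S100A8 TAM, 1, 0, and 1 in S100A9 EtOH, and 3, 2, and 5 in S100A9 TAM. These groups overlap, and the difference of 2.50 did not pass the test (exact permutation test, adjusted p = 0.0553). FGR, a myeloid kinase, has 0 and 1 peaks in S100A8 EtOH, 3, 4, and 2 in S100A8 TAM, none in S100A9 EtOH, and 5, 4, and 5 in S100A9 TAM. Its groups do not overlap, and the difference is 3.58 (exact permutation test, adjusted p = 0.0219). It depends on the outer flanks, since it is 0.833 with 20 kb flanks (exact permutation test, adjusted p = 0.337) and 0.667 with the gene body.

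CSK, the inhibitory kinase, has 3 and 2 peaks in S100A8 EtOH, 7, 7, and 5 in S100A8 TAM, 1, 0, and 1 in S100A9 EtOH, and 5, 7, and 10 in S100A9 TAM. All TAM values are above all EtOH values, with a difference of 5.25 (exact permutation test, adjusted p = 0.0219). PAG1, the adaptor that brings CSK to the membrane, has 0 and 0 peaks in S100A8 EtOH, 1, 2, and 3 in S100A8 TAM, 1, 0, and 0 in S100A9 EtOH, and 2, 1, and 5 in S100A9 TAM. EtOH and TAM meet at 1 peak, and the difference is 2.17 (exact permutation test, adjusted p = 0.0352). PTK2 has 4 and 4 peaks in S100A8 EtOH, 14, 9, and 9 in S100A8 TAM, 1, 0, and 3 in S100A9 EtOH, and 9, 12, and 10 in S100A9 TAM. Its difference of 7.83 peaks is the largest of the 9 genes (exact permutation test, adjusted p = 0.0219), over the longest locus of 444 kb.

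Per 100 kb of locus, CSK has 5.64 ± 1.51 peaks in TAM (SD, n = 6) and its mean lies more than 1 SD above those of the other 8 genes. FGR (3.11 ± 0.950), SRC (2.89 ± 0.640), LYN (2.70 ± 0.747), LCK (2.47 ± 1.38), and PTK2 (2.36 ± 0.467) follow and differ from their neighbors in this order by less than 1 SD. YES1 (1.31 ± 1.09) and PAG1 (0.955 ± 0.616) likewise differ by less than 1 SD, and FYN has 0.213 ± 0.330. In EtOH, CSK has 1.16 ± 0.941 peaks per 100 kb (SD, n = 5), and SRC (0.744 ± 0.679), LCK (0.593 ± 0.620), and PTK2 (0.540 ± 0.409) lie within 1 SD of it.

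**Figure D2:**
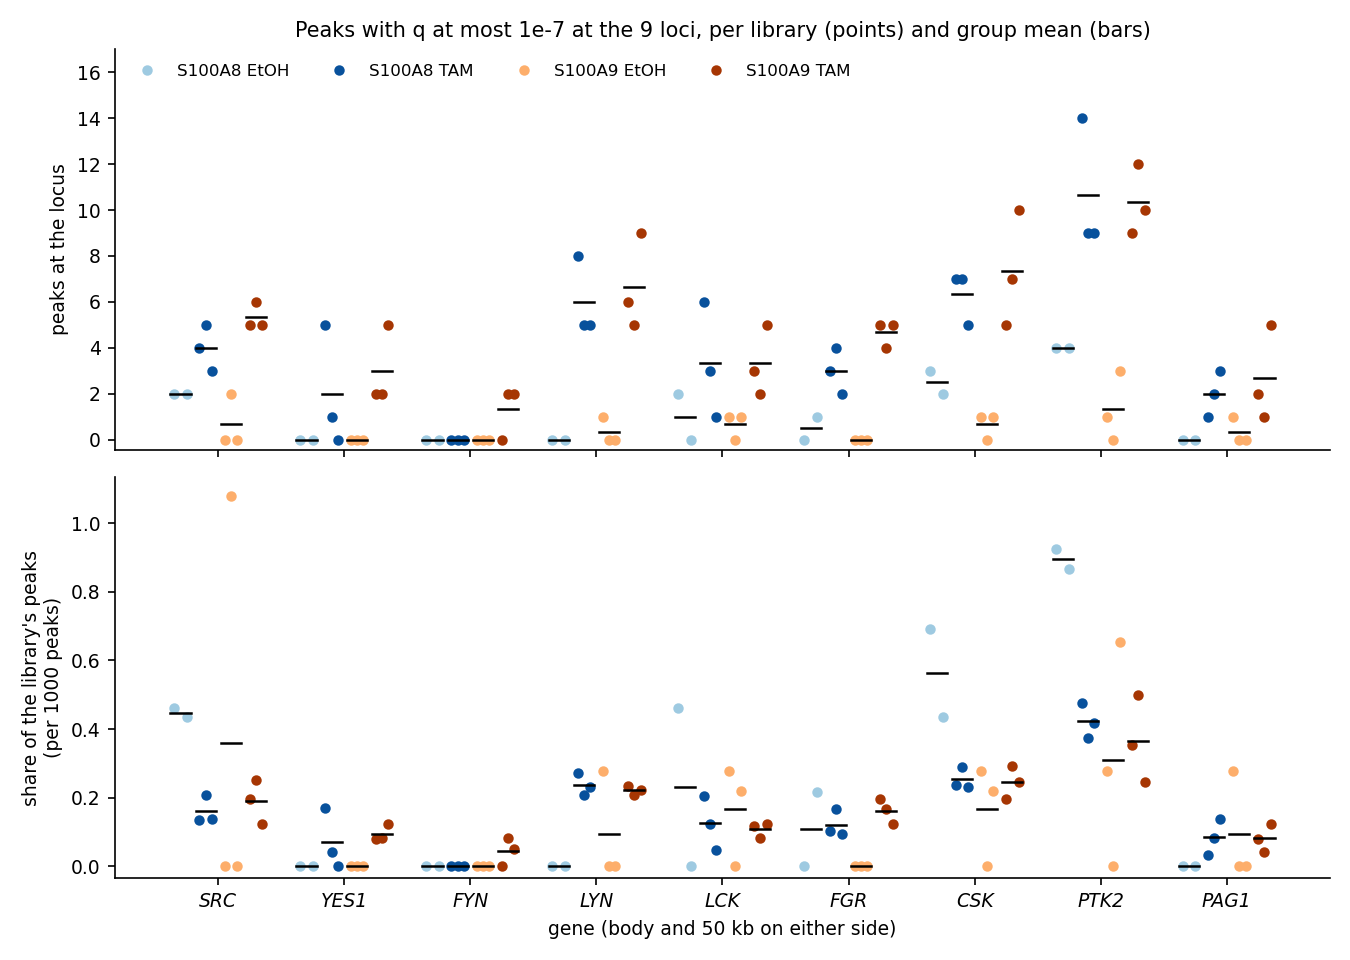
Peaks with q of at most 1e-07 at each locus (top) and the same as a share of all peaks of the library, per 1000 peaks (bottom), with a point for each library and a bar for each group mean. The number at LYN is 5 to 9 in TAM and 0 or 1 in EtOH, and the share at SRC is highest in S100A9 EtOH replicate 2, at 1.08 per 1000 peaks.

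The calls on the number of peaks rest on all peaks past the threshold. When the 1853 peaks with the lowest q value were taken from every library, 4 of the genes had peaks in enough libraries to be tested and none was called, and the difference was −0.667 peaks for SRC, −0.583 for LCK, −0.250 for CSK, and 0 for PTK2. With q of at most 1e-10, CSK, FGR, LYN, and PTK2 were called (4 of 9, beside 40.6% of genes tested). The differences of SRC (1.17), YES1 (1.83), and PAG1 (1.00) did not pass there. With 20 kb flanks LYN and PTK2 were called (2 of 9, beside 29.4%). At 20 kb the difference was 3.33 for CSK (exact permutation test, adjusted p = 0.0516). It was 2.50 for SRC, 2.00 for YES1, and 1.83 for PAG1 (exact permutation test, adjusted p = 0.0585 for each). With gene bodies alone none was called (0 of the genome). With gene bodies the differences were 5.50 peaks for LYN, 3.50 for PTK2, and 1.83 for CSK, each at the smallest p of the exact permutation test, for which the adjusted p is 0.0699, so that no gene could be called. The differences of PAG1 (1.83, p = 0.0300), SRC (1.92, p = 0.0600), YES1 (0.5, p = 0.240), FYN (0.333, p = 0.400), and FGR (0.667, p = 0.300) with gene bodies had a larger p in the exact permutation test, and LCK had too few peaks to be tested. The call of YES1 was lost when a single library was left out, for each of the 6 S100A9 libraries and for S100A8 TAM replicates 1 and 2, with exact permutation adjusted p values from 0.0692 (without S100A8 TAM replicate 2) to 0.0860 (without S100A9 TAM replicate 3). Its difference was 2.50 peaks without each S100A9 EtOH library, 2.75 without S100A9 TAM replicate 1 or 2 or S100A8 TAM replicate 2, 2.00 without S100A9 TAM replicate 3, and 1.75 without S100A8 TAM replicate 1. That of PAG1 was lost in the same way for each S100A8 TAM library, S100A9 EtOH replicates 2 and 3, and S100A9 TAM replicates 1 and 3, with exact permutation adjusted p values from 0.0522 (without S100A8 TAM replicate 3) to 0.0696 (without S100A9 EtOH replicate 2). Its difference in these cases ranged from 1.58 (without S100A9 TAM replicate 3) to 2.42 peaks (without S100A8 TAM replicate 1). LCK was called without S100A8 TAM replicate 3 (exact permutation test, adjusted p = 0.0314). By limma on all 11 libraries LCK was called as well (adjusted p = 0.0162), with 8 of 9 members called in all, beside 85.1% of genes tested. Where an S100A8 EtOH library was left out limma was used, and LCK was called without replicate 1 (limma, adjusted p = 0.00731) and not without replicate 2 (limma, adjusted p = 0.0976), beside 76.4% and 77.0% of genes. SRC, LYN, FGR, CSK, and PTK2 were called whichever library was left out.

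To compare the loci with the rest of each library, the number of peaks was divided by all peaks of the library. This share did not pass the test at any of the 9 genes, nor at any gene of the genome (0% of 18126 genes by the exact permutation test, with 3979 genes at an unadjusted p under 0.05, whereas limma on square roots called 3683). The members lie on both sides of 0. LYN has a share of 0.272, 0.207, and 0.232 per 1000 peaks in S100A8 TAM and of 0.235, 0.208, and 0.221 in S100A9 TAM. In EtOH its share is 0 in 4 libraries and 0.278 in S100A9 EtOH replicate 1, where a single peak makes up that share. The LYN difference of 0.183 per 1000 lies at percentile 99.0 of all genes (exact permutation test, unadjusted p = 0.0400, adjusted p = 0.182). YES1 has a difference of 0.0827 (exact permutation test, unadjusted p = 0.0300, adjusted p = 0.171).

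By contrast, the shares of SRC, PTK2, CSK, and LCK have negative TAM minus EtOH differences, although that of PTK2 is positive with gene bodies alone (0.0725) and with 20 kb flanks (0.00895). At SRC the share is 0.462 and 0.434 in S100A8 EtOH and 0.136, 0.207, and 0.139 in S100A8 TAM. In S100A9 EtOH it is 0, 1.08, and 0, whereas in S100A9 TAM it is 0.196, 0.250, and 0.123. The SRC difference is −0.229 (exact permutation test, unadjusted p = 0.22), and without S100A9 EtOH replicate 2 it is −0.0487. At PTK2 the share is 0.924 and 0.868 in S100A8 EtOH, 0.476, 0.373, and 0.418 in S100A8 TAM, 0.278, 0, and 0.653 in S100A9 EtOH, and 0.353, 0.5, and 0.245 in S100A9 TAM. Its difference of −0.209 did not pass the test (exact permutation test, unadjusted p = 0.160), and without S100A9 EtOH replicate 3 it is −0.123. The differences of CSK (−0.115), LCK (−0.0817), FGR (0.0868), PAG1 (0.0368), and FYN (0.0221) did not pass either. The PAG1 difference is 0.0832 without S100A9 EtOH replicate 1 (exact permutation test, unadjusted p = 0.0200, adjusted p = 0.122), 0.0137 without S100A9 EtOH replicate 2 or 3, and 0.0234 without S100A8 TAM replicate 3. The LCK difference is −0.0535 without S100A9 EtOH replicate 1 and −0.123 without S100A9 EtOH replicate 2. The median of the 9 genes is 0.0221, beside 0.00976 for all genes tested. In limma on square roots, the shares of LYN, YES1, and FGR were called higher (adjusted p = 0.0186, 0.0327, and 0.0457), and the other 6 were not. These are 3 of 9 genes, beside 20.3% of all genes tested. By limma without an S100A8 EtOH library, the share of LYN was also called (adjusted p = 0.0483 without replicate 1 and 0.0474 without replicate 2), as was that of FGR without replicate 2 (limma, adjusted p = 0.00243). FGR was not called without replicate 1 (limma, adjusted p = 0.0751), nor YES1 without replicate 1 or 2 (limma, adjusted p = 0.0684 and 0.0670). In these fits 17.3% (without replicate 1) and 17.8% of genes (without replicate 2) were called. With every deposited peak, the share differences by the exact permutation test are 0.0773 for LYN, 0.00715 for FGR, −0.00345 for YES1, 0.0842 for PAG1, 0.0106 for FYN, −0.0800 for SRC, −0.0147 for PTK2, −0.0872 for CSK, and −0.0694 for LCK, and none passed after adjustment.

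**Figure D3:**
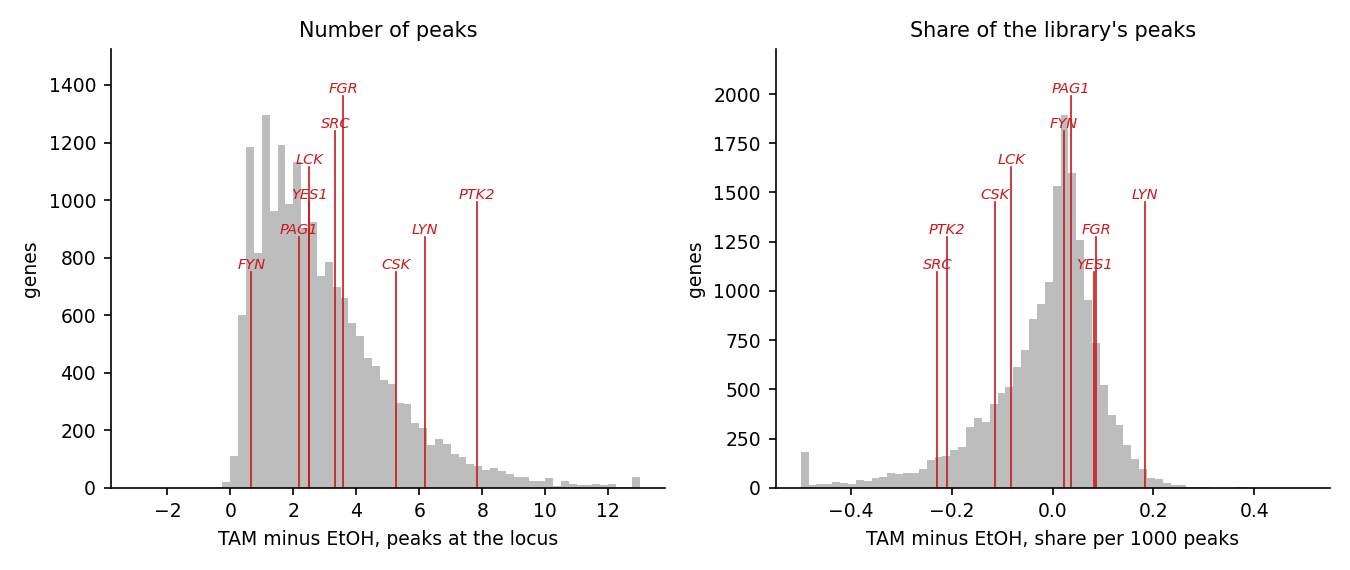
Distribution over 18126 genes of the TAM minus EtOH difference in the number of peaks (left) and in the share per 1000 peaks (right), with the 9 genes marked by lines and values beyond the axis in the outermost bars. PTK2, at 7.83 peaks, is farthest right on the left side, and LYN, at 0.183 per 1000, on the right side.

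S100A9 and S100A8 were compared in the same way. No gene of the genome has a share that differs between the proteins after adjustment (0% of 18126 genes by the exact permutation test, with 433 at an unadjusted p under 0.05, and 503 called by limma), and 0 of the 9 genes do. By limma on all 11 libraries none of the 9 was called, and by limma without S100A8 EtOH replicate 1 FGR was (adjusted p = 0.0394), beside 6.62% of genes. The lowest p among the members is that of PTK2, with an S100A9 minus S100A8 difference of −0.321 per 1000 peaks (exact permutation test, unadjusted p = 0.0600, adjusted p = 1.00), which is 0.0599 with gene bodies alone. At the level of sites, 34 of 44 were called with both proteins (77.3%, beside 78.9% of all union sites). Sites without a call in any S100A8 library number 8 (18.2%, beside 15.6%), among them both FYN sites, and sites without a call in any S100A9 library number 2 (4.55%, beside 5.44%), namely the FGR promoter site and a site in PTK2 intron 27 that is named after its values were seen. Below the threshold, S100A9 TAM replicate 1 has a peak at the FGR promoter site (−log10 q of 6.35) and S100A8 TAM replicate 1 at the FYN promoter site (−log10 q of 6.60), so that these calls depend on the threshold.

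Calls at the sites in EtOH are few. Of the 44 sites, 15 were called in at least 1 EtOH library (34.1%, beside 31.1% of all union sites), and 27 overlap an EtOH peak when every deposited peak is used (61.4%, beside 65.3%). The share of the 44 sites called is 11.4% ± 7.71 (SD, n = 5) in EtOH libraries and 61.7% ± 11.3 (SD, n = 6) in TAM libraries. Of all union sites it is 9.96% ± 2.93 and 63.2% ± 11.3. Union sites were kept for being confident in a condition, and none of the 44 lacks a TAM call. A higher share in TAM is thus set in part by this selection, so no conclusion is drawn from it. Confident sites number 5 in S100A8 EtOH (11.4%, beside 4.01% of all union sites), 24 in S100A8 TAM (54.5%, beside 60.1%), 1 in S100A9 EtOH (2.27%, beside 4.54%), and 36 in S100A9 TAM (81.8%, beside 82.3%). By gene, an EtOH call is present at 4 of 5 sites of SRC, 5 of 10 of PTK2, 3 of 7 of CSK, 1 of 1 of PAG1, 1 of 5 of LCK, 1 of 6 of FGR, 0 of 6 of LYN, 0 of 2 of YES1, and 0 of 2 of FYN. Differences between genes in these counts were not tested.

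Promoters were examined next. In S100A8 TAM, the promoters of FGR and PTK2 hold a confident site, 2 of 9 genes beside 33.9% of all genes. In S100A9 TAM, those of SRC, YES1, FYN, and PTK2 do, 4 of 9 genes beside 40.9%. No member promoter holds a confident site in S100A8 EtOH (0 of 9, beside 4.09%) or in S100A9 EtOH (0 of 9, beside 4.86%).

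The SRC promoter site (chr20:35974395-35974637) has its summit at −119 bp from the canonical TSS. Its fold enrichment is 10.2 in S100A8 EtOH replicate 1, 8.13 in S100A8 TAM replicate 2, and 8.57, 8.28, and 6.63 in the S100A9 TAM libraries, and no peak at the site passed the threshold in the other libraries. The YES1 promoter site (chr18:811560-813365), at −664 bp from the canonical TSS, reaches 12.3, 14.3, and 8.62 in S100A9 TAM and 7.34 in S100A8 TAM replicate 1. It is at percentiles 91.7, 94.5, and 67.0 of the S100A9 TAM libraries and 35.2 of S100A8 TAM replicate 1. Below the threshold, 3 EtOH libraries also have a YES1 promoter peak, with −log10 q values of 4.67, 6.73, and 3.65.

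The FYN promoter site (chr6:112194514-112194740) lies 16 bp downstream of the canonical TSS and was called in S100A9 TAM replicates 2 and 3, with fold enrichments of 8.40 and 8.52. FGR has a site (chr1:27952521-27952809) at an alternative TSS, 17 bp downstream of it and 8962 bp downstream of the canonical TSS, with fold enrichments of 8.07 and 9.38 in S100A8 TAM replicates 1 and 2. PTK2 has 2 promoter sites. That at chr8:142011133-142011994, at −198 bp from the canonical TSS, was called in S100A9 EtOH replicate 3 and in 5 TAM libraries, with fold enrichments from 6.06 to 10.6. That at chr8:141728511-141729003, at an alternative TSS inside canonical intron 25, was called in 4 TAM libraries, with fold enrichments of 7.84 and 8.76 in S100A8 and 6.16 and 6.89 in S100A9.

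The other promoters have scattered peaks. Peaks past the threshold are present at a LYN promoter in 3 TAM libraries, at −143 bp and −111 bp from the canonical TSS in S100A8 TAM replicate 1 and S100A9 TAM replicate 1 and at an alternative TSS in S100A9 TAM replicate 3, so that no 2 replicates of a condition share one. CSK has such a promoter peak in S100A9 TAM replicate 3, and PAG1 has none by the rule on summits. A PAG1 peak in S100A8 TAM replicate 1 (chr8:82023952-82024353, −log10 q of 10.3) nevertheless spans the canonical TSS. Its summit lies downstream of the 250 bp limit, so that it is set among the exon-only summits below. No library has a peak of any deposited q value in the LCK promoters.

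Inside the genes, CSK has the site called most often. Its summit lies in intron 5 (chr15:75092122-75092874), 18248 bp downstream of the canonical TSS, and it was called in 10 of 11 libraries, a number that 1.35% of all union sites reach. Its fold enrichments are 9.39 and 8.20 in S100A8 EtOH, 11.2, 17, and 7.82 in S100A8 TAM, 8.62 and 9.90 in S100A9 EtOH replicates 1 and 3, and 6.53, 9.68, and 7.33 in S100A9 TAM. EtOH and TAM values overlap, and it is the one site of the 44 that is confident in S100A9 EtOH. SRC has 2 intronic sites. The site in intron 4 (chr20:36013123-36013410), 713 bp downstream of an alternative TSS, passed the threshold in S100A9 libraries only, at fold enrichments of 11.4 in S100A9 EtOH replicate 2 and 6.98, 13, and 12.8 in S100A9 TAM. When every deposited peak is used, 5 TAM libraries have a peak there, so that S100A8 TAM libraries are among them. The site in intron 7 (chr20:36023228-36023867), which was picked out after its values were seen, was called in both S100A8 EtOH libraries (7.75 and 9.23) and in 5 TAM libraries (6.64 to 19.7). PAG1 has its 1 site in intron 2 (chr8:81962945-81963188), with fold enrichments between 5.32 and 7.22 in 4 libraries and a mean percentile of 7.64, the lowest of the named sites.

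At LYN all 6 sites lie in the gene body, and no EtOH library called any of them. All of them entered the union through TAM conditions alone, so that few EtOH calls follow in part from this selection. The sites in introns 4 and 10 (chr8:56860796-56861296 and chr8:56883439-56883697), picked out after their values were seen, were called in all 6 TAM libraries. Of the 44 sites, 6 were called in all TAM libraries (13.6%, beside 14.3% of all union sites). In intron 4 the fold enrichments are 16.2, 10.6, and 6.95 in S100A8 TAM and 9.19, 9.08, and 7.15 in S100A9 TAM. In intron 10 they are 9.70, 7.14, and 5.05 in S100A8 TAM and 10.7, 9.44, and 7.34 in S100A9 TAM. When every deposited peak is used, 3 of the 6 LYN sites overlap an EtOH peak, so that the lack of EtOH calls depends on the threshold at these.

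**Figure D4:**
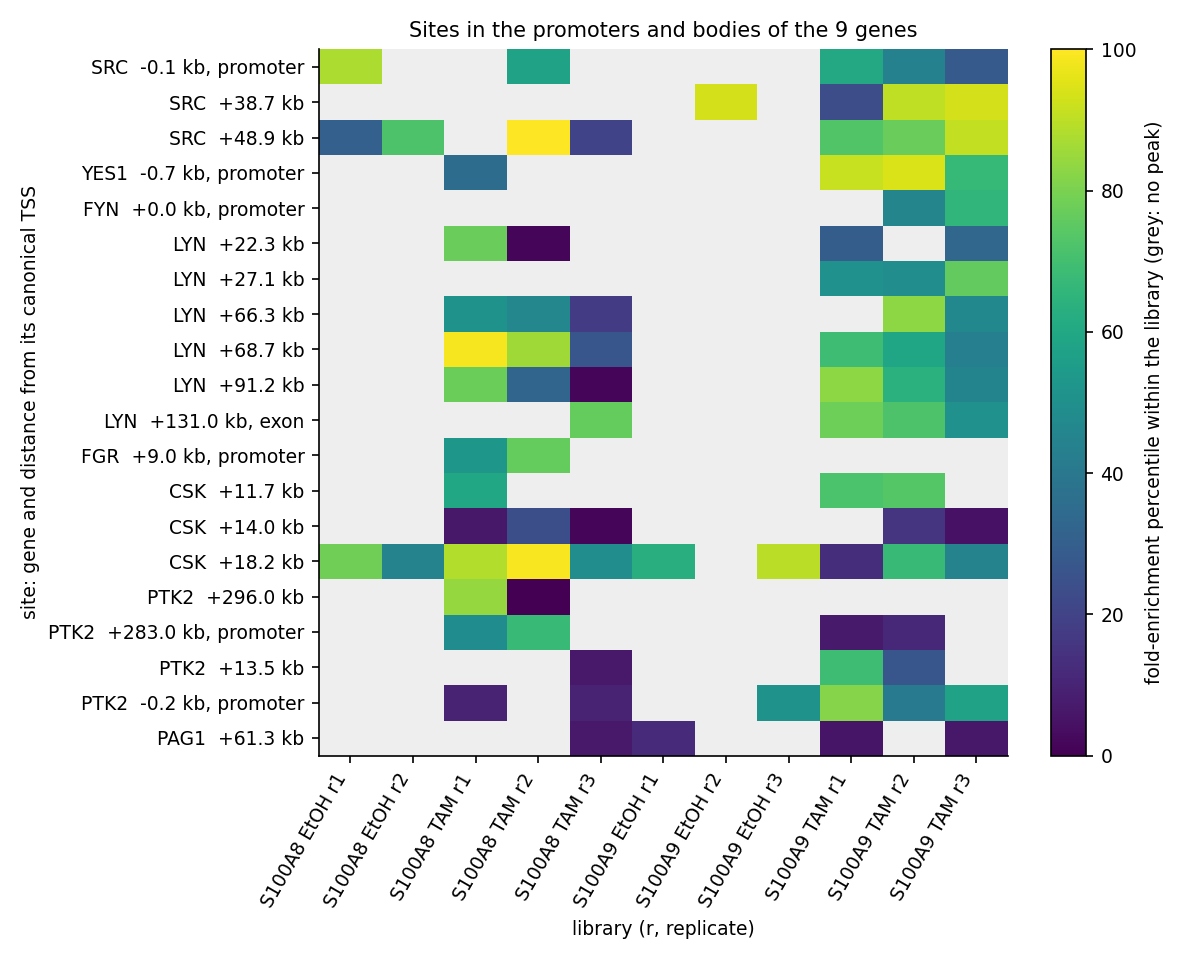
Fold-enrichment percentile within each library (columns) at the 20 sites in the promoters and bodies of the 9 genes, each line a site by its distance from the canonical TSS, with grey where no peak passed the threshold. The CSK site at 18.2 kb is filled in 10 columns, and the LYN sites are filled in TAM columns only.

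Summits over exons were set apart because the cells carry the v-Src coding sequence. Any of its reads that aligned to SRC exons could not be told apart from those of SRC in peak lists. Whether any did was not tested. Past the threshold, no library has an exon-only summit at SRC, over 7.14 kb of exons. When every deposited peak is used there is 1, in S100A9 EtOH replicate 1 (chr20:36026183-36026325, fold enrichment 4.50 and −log10 q of 2.21). The 9 genes have 7 exon-only summits past the threshold in all, each of them in a TAM library, with 5 at LYN, 1 at PTK2, and 1 at PAG1. Without S100A8 TAM replicate 1 the number is 4. TAM libraries have more peaks throughout the genome, and no number over all genes is set beside these summits. Whether their number or their place in TAM libraries is particular to the 9 genes was not tested. The PTK2 summit is the only one over sequence that is coding in a transcript of the gene. At LYN they lie in the 3′ untranslated region. They form 1 site (chr8:56923258-56923444) that was called in S100A8 TAM replicate 3 and in the 3 S100A9 TAM libraries, with fold enrichments of 9.46, 10.1, 10.2, and 7.57, whereas S100A8 TAM replicate 1 has its summit elsewhere in the same exon.

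Other genes of the pathway were examined by role. Over all genes tested, 67.6% were called with more peaks in TAM and the median difference is 2.42 peaks. Among related kinases, BLK, SRMS, PTK6, PTK2B, and MATK were called with more peaks in TAM, and FRK did not pass the test. The regulators of Src are phosphatases, ubiquitin ligases, and an inhibitor of focal adhesion kinase. Among them the number called with more peaks in TAM is 6 of 7, with 0 called with fewer and a median difference of 2.83 peaks. Among the focal adhesion adaptors and substrates it is 24 of 27, with 0 fewer and a median difference of 3.83 peaks. A promoter site is present in 7 of 7 regulators and in 17 of 27 adaptors and substrates, beside 45.7% of all genes. Of the kinases named, PTK6 and PTK2B have such a site, and BLK, FRK, SRMS, and MATK have none.

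By share, none of these genes passed the test after adjustment. PTK2B, the paralog of PTK2, has a difference of 0.184 per 1000 peaks (exact permutation test, unadjusted p = 0.0300), PTK6 has 0.138, and MATK has −0.0286. Among the regulators, the ubiquitin ligases CBLB (0.0812) and CBL (0.0755) have the largest differences, and RB1CC1 (−0.0735) and the phosphatase gene PTPN1 (0.0124) the lowest. Among the adaptors and substrates, PXN, which encodes the focal adhesion scaffold paxillin, has 0.368 per 1000 peaks (exact permutation test, unadjusted p = 0.01, adjusted p = 0.0831) and ARHGAP26 has 0.181. PXN has at most 1 peak in an EtOH library and 9 to 16 in TAM libraries. At the other end are the adaptor SHC1 with −0.734 (exact permutation test, unadjusted p = 0.01, adjusted p = 0.0831) and ARHGEF7 with −0.284. SHC1 has 1 to 7 peaks in EtOH libraries and 10 to 14 in TAM libraries, so that its number is higher in TAM while its share is lower.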

How the data were processed

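Peak lists of 11 Flag ChIP-seq libraries were used. The authors used Bowtie2 for alignment to hg19 and retained reads with a unique position. MACS2 then gave narrow peaks for each library against the input of the same sample, down to a q of 0.05 (versions not given). The deposited lists give fold enrichment over input at the summit, −log10 p, −log10 q, a score that is 10 times −log10 q as a whole number, and the summit's offset, all made by the authors with MACS2. Read numbers are not given, so depth is unknown. Genes are those of GENCODE 44 in hg19 coordinates. Peaks were merged at 1 bp of overlap, and percentiles rank fold enrichment among peaks of q at most 1e-07 in a library. The exact permutation test permuted treatment within protein (200 arrangements), or protein within treatment for the other comparison. The members and lists were chosen with earlier results of these data known. Sites named by rule are member promoter sites, exon-only sites, and in each gene body the site of highest mean percentile among those called in at least 4 libraries. Of the regulators and of the adaptors and substrates, those with the 2 highest and the 2 lowest share differences are named. Python 3.11.15, numpy 2.4.6, pandas 2.3.3, scipy 1.17.1, matplotlib 3.10.9, R 4.3.3, and limma 3.58.1 were used, and the tests were tested on simulated data. Alternatives were other q thresholds, equal numbers of peaks, other flanks, overlap, replicate, promoter, and exon rules, limma, all genes, a replicate block, and leaving out each library. Input and RNA polymerase II libraries were not used here.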

Additional observations from a re-analysis of the deposited data

How the results depend on the processing

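Genes called with more peaks in TAM numbered 6885 with q of at most 1e-10 (40.6% of those tested). They numbered 4939 with 20 kb flanks (29.4%) and 0 with gene bodies alone (3984 at an unadjusted p under 0.05 by the exact permutation test). The same 1853 top peaks in every library also gave 0 (70 at an unadjusted p under 0.05 by the same test). So did a replicate block, in which 5 pairs allow no exact p below 0.0625. With the block the SRC difference was 3.58 peaks. Whether replicate numbers pair libraries is not stated, and the main test treated them as unpaired. With the same top peaks, the differences of SRC, LCK, and CSK were −0.667, −0.583, and −0.250, that of PTK2 was 0, the sites numbered 3, and genes with a promoter site and exon-only summits were both 0. Genes with a changed share numbered 3683 and genes that differ between proteins 503 by limma. Leaving out each library gave 0 to 3220 and 0 to 1199, the higher values without an S100A8 EtOH library, where limma was used and the lone library of that group was assumed to vary like the other groups. When each library was left out, the share difference ranged from −0.172 to 0.168 for LCK and from −0.157 to 0.00288 for CSK. Of these, 0.168 and 0.00288 (without S100A8 EtOH replicate 1) and −0.172 (without S100A8 EtOH replicate 2) are limma values on the square-root scale. Per 1000 peaks, the lowest LCK value with a library left out was −0.123. With q of at most 1e-10 the share difference was −0.146 for LCK and −0.422 for CSK. With the same top peaks it was −0.315 for LCK and −0.135 for CSK. The share difference of YES1 was −0.00345 with every deposited peak, and that of PTK2 was 0.0725 with gene bodies and 0.00895 with 20 kb flanks. Between proteins, PTK2 had 0.0599 with gene bodies. Sites numbered 97 with every deposited peak, 27 with q of at most 1e-10, 19 with gene bodies, 107 with at least 1 replicate, and 20 with every replicate. Genes with a promoter site numbered 3 with q of at most 1e-10 and 3 with every replicate. Exon-only summits numbered 23 with every deposited peak, 1 over coding parts, and 4 to 7 when each library was left out. The cause was not tested for any of these.

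Depth and strength of binding cannot be told apart. Neither can reads of SRC exons and any reads of the ER-Src transgene that aligned there, which was not tested. Loci include neighboring genes, and a site there is not assigned to a member by any measurement. With 200 arrangements the smallest p is 0.01, and 3626 genes at that p would be needed for a call, whereas 2182 had it for the share.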
